A study of Ambystoma mexicanum with 12 samples.

Results

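Skin is held together by a thin sheet of matrix between the epidermis and the dermis. Through axolotl skin wounding, 5 collagen genes of that interface, of other basement membranes or of the cell surface were followed here. These were COL4A1, COL7A1, COL17A1, COL23A1 and COL28A1. They were picked out by gene symbol, which gave 7 of the 20035 probe sets tested (3 of them for COL7A1). The choice of genes was made with earlier results of these data known. RNA had been measured on 12 one-colour Affymetrix arrays of skin from adult white axolotls: 3 of uninjured skin and 3 each of wounds collected at 2, 14 or 21 days post injury (dpi). For these groups the titles and methods name no allele and no treatment other than the punch biopsy, so the groups are taken to differ by the wound and its age. The methods give p-amino benzocaine as the anaesthetic for in vivo experiments. In a whole biopsy, fewer cells of a type and less RNA per cell cannot be told apart. The labels describe pooled animals and the study's methods separate adult males, so an array may hold 1 animal or a pool. The methods derive uninjured and wound samples alike from 3 such males, so groups may share animals, while the main fit treats arrays as independent. An SD or p here measures the spread between arrays. A description label also gives 7 days for the arrays that titles, source labels and methods place at 14 days, which was used. A treatment label speaks of a spinal cord study with ivermectin, against the titles and tissue labels. Some skin markers were bright in uninjured skin (EPCAM 13.15, KRT8 13.02, DSP 11.98 and COL1A1 11.30 on the log2 scale). Others were dimmer: the summed intensity of 9 basal keratinocyte markers was 9.69, 9.39 and 9.30 (log2) on the uninjured arrays. For 19 suprabasal and wound epidermis markers it was 15.13, 15.23 and 15.41. For 31 skeletal muscle markers it was 16.75, 16.81 and 14.79, so muscle RNA was also bright. KRT5, KRT14, KRT15, PLEC and NID1 were not analysed here. The 14 dpi replicate 2 array stood apart from its group, being closest to 21 dpi replicate 1 (r = 0.992 across probe sets, against a mean r of 0.975 with its own group). Values of the members without it are given where they change a call. Calls of other genes were not checked without that array. Uninjured replicate 3 had the same mean r with its group (0.975), its closest array being uninjured replicate 2 (r = 0.977). Its mean of skeletal muscle markers, described below, was -0.45, beside 1.82 and 1.85 on the other uninjured arrays.

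Type IV collagen forms the net-like scaffold of every basement membrane, and COL4A1 encodes its most widespread chain, which is built into a trimer with the product of the neighbouring gene COL4A2. Type VII collagen, from COL7A1, makes the anchoring fibrils that tie the epidermal basement membrane to the dermal collagen below, and its loss in people causes dystrophic epidermolysis bullosa. COL17A1 encodes a transmembrane collagen of the hemidesmosome, the rivet by which a basal keratinocyte grips the basement membrane, and ADAM proteases shed its outer part. COL23A1 is another transmembrane collagen that is shed from the cell surface. COL28A1 encodes a short-helix collagen with von Willebrand factor A domains, known in mouse from the basement membrane around certain Schwann cells of peripheral nerve. During wound closure keratinocytes leave this interface, crawl over a provisional matrix and rebuild the basement membrane beneath themselves.

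Values are log2 intensities, in which a step of 1 is a doubling, and changes and p-values are from limma with Benjamini-Hochberg adjustment over all probe sets within a comparison. Over the 3 comparisons with uninjured skin, 5 of the 7 probe sets passed the F-test for a change at any time, against 21.5% of all probe sets. Since the genes were chosen with earlier results known, this count is a description and no test of the set. These were COL4A1 (adjusted p = 0.00493), COL28A1 (adjusted p = 0.00508), COL17A1 (adjusted p = 0.0337) and the 2 brighter probe sets of COL7A1 (adjusted p = 0.00539 and 0.0278). The dimmest COL7A1 probe set (adjusted p = 0.240) and COL23A1 (adjusted p = 0.0649) did not pass. Within the 5 genes the time courses took different forms. COL4A1 was low at 2 dpi, COL17A1 and the brightest COL7A1 probe set were already higher then, and COL28A1 was higher at 14 and 21 dpi. The 2 dpi calls of COL4A1, that COL7A1 probe set and COL17A1 were lost in 6, 16 and 13 of 25 alternative fits.

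**Figure D1:**
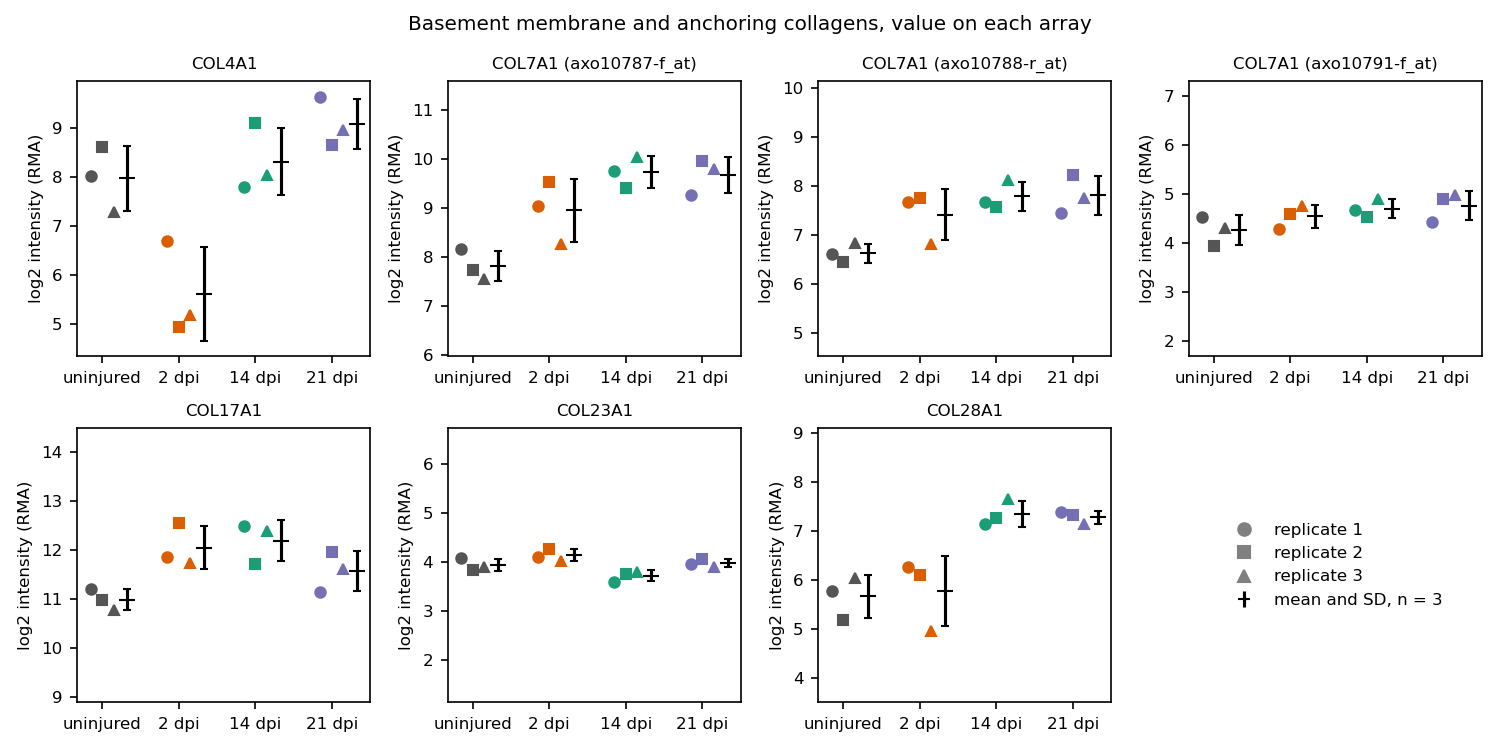
Log2 intensity of the 7 probe sets on the 12 arrays by group, 1 panel per probe set, with points for arrays (shape for the replicate number), bars for the mean and SD of 3, and an axis of the same span in every panel. COL4A1 dips at 2 dpi to 5.61 from 7.97 in uninjured skin, whereas all wound arrays of the brightest COL7A1 probe set lie above uninjured skin.

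COL4A1, the basement membrane scaffold chain, fell 5.14-fold at 2 dpi and was 11.1-fold higher at 21 dpi than at 2 dpi. It read 8.01, 8.61 and 7.29 in uninjured skin, 6.70, 4.94 and 5.19 at 2 dpi, 7.79, 9.09 and 8.04 at 14 dpi, and 9.63, 8.64 and 8.96 at 21 dpi. Every 2 dpi array was below every array of the other 3 groups, and every 21 dpi array was above every uninjured array. The group means were 7.97 ± 0.66 (SD, n = 3) in uninjured skin, 5.61 ± 0.95 (SD, n = 3) at 2 dpi, 8.31 ± 0.69 (SD, n = 3) at 14 dpi and 9.08 ± 0.51 (SD, n = 3) at 21 dpi. Against uninjured skin the Log2-fold change was -2.36 at 2 dpi (standard error 0.52, 95% interval -3.51 to -1.21, adjusted p = 0.0185). At 14 dpi it was 0.34 (interval -0.81 to 1.49, adjusted p = 0.778) and at 21 dpi 1.11 (interval -0.04 to 2.25, adjusted p = 0.206), so neither late value passed the test against uninjured skin. Both were called against the 2 dpi wound, by 2.70 at 14 dpi (adjusted p = 0.0117) and by 3.47 at 21 dpi (adjusted p = 0.00131). From lowest to highest the groups thus ran 2 dpi, uninjured, 14 dpi and 21 dpi, and of the neighbours in this order only 2 dpi and uninjured skin differed beyond their spread.

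Some markers of muscle, fibroblasts and vessels were also lower at 2 dpi. The mean of 31 skeletal muscle markers (of 44 listed), each gene set to a mean of 0 over the 12 arrays, lay between -0.45 and 1.85 in uninjured skin and between -2.73 and -0.34 at 2 dpi, ranges that overlap, and 10 of the 31 genes were lower and 0 higher by limma (21 lower before adjustment, at p under 0.05). In each of the 4 groups the array with the highest COL4A1 value was also the array with the highest muscle mean. In the order of replicates the muscle mean was -0.77, 1.04 and -1.22 at 14 dpi, and 1.67, 0.34 and 1.04 at 21 dpi. With that mean as a covariate the COL4A1 change at 2 dpi was -0.72 (adjusted p = 0.414), in a fit that called 1.44% of all probe sets, while the changes at 14 dpi (1.14, adjusted p = 0.0293) and 21 dpi (1.14, adjusted p = 0.00980) were then called. Of 14 fibroblast markers 8 were lower at 2 dpi, and of 15 endothelial markers 3 were lower (PECAM1, VWF and MMRN1), with 0 higher in either list (10 and 7 lower before adjustment, at p under 0.05). Over all probe sets, 3.86% were called lower and 5.42% higher at 2 dpi. The muscle mean shifted with the groups, so the covariate fit cannot set muscle content apart from the wound and its age. What part muscle, fibroblasts and vessels had in the COL4A1 values was not tested. The call at 2 dpi was also lost without uninjured replicate 1 (adjusted p = 0.0578), uninjured replicate 2 (0.0774), 2 dpi replicate 2 (0.0726) or 2 dpi replicate 3 (0.0673). The late calls against 2 dpi were lost with the mean of basal and suprabasal epidermal markers as a covariate (1.58, adjusted p = 0.245, and 1.94, adjusted p = 0.210). In these comparisons that fit called 1.6% and 2.21% of all probe sets. With only the groups compared in the fit, the calls at 2 dpi (adjusted p = 0.0629) and at 14 against 2 dpi (0.0607) were lost.

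COL4A2, the partner chain, was low on the same 2 dpi arrays. It read 7.42, 7.77 and 6.50 in uninjured skin, 5.70, 4.39 and 3.64 at 2 dpi, 7.02, 7.96 and 7.10 at 14 dpi, and 8.78, 8.06 and 8.22 at 21 dpi. Its change was -2.65 at 2 dpi (adjusted p = 0.00976), 0.13 at 14 dpi (adjusted p = 0.924) and 1.13 at 21 dpi (adjusted p = 0.183). Among 8638 other named genes, those with the profiles closest to COL4A1 over the 12 arrays were NID2 (Pearson's r = 0.991), COL4A2 (0.986), FERMT2 (0.973), ROBO1 (0.968) and COL6A2 (0.966). These r are descriptions over arrays that share the 4 group means, with no test. NID2 encodes nidogen-2, a linker between the laminin and type IV collagen networks, and fell from 8.59 to 5.70 at 2 dpi before reading 9.02 at 14 dpi and 10.13 at 21 dpi. FERMT2 encodes kindlin-2, an integrin activator of mesenchymal cells, and fell by 3.81 on the log2 scale at 2 dpi. In the RefSeq annotation of assembly UKY_AmexF1_1, COL4A1 and COL4A2 are adjacent protein-coding genes, as they are in other vertebrates. COL4A5 and COL4A6, which pair in another type IV trimer, were not called at any time (COL4A5 0.18 at 2 dpi and 0.84 at 21 dpi, COL4A6 0.22 and 0.65).

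**Figure D2:**
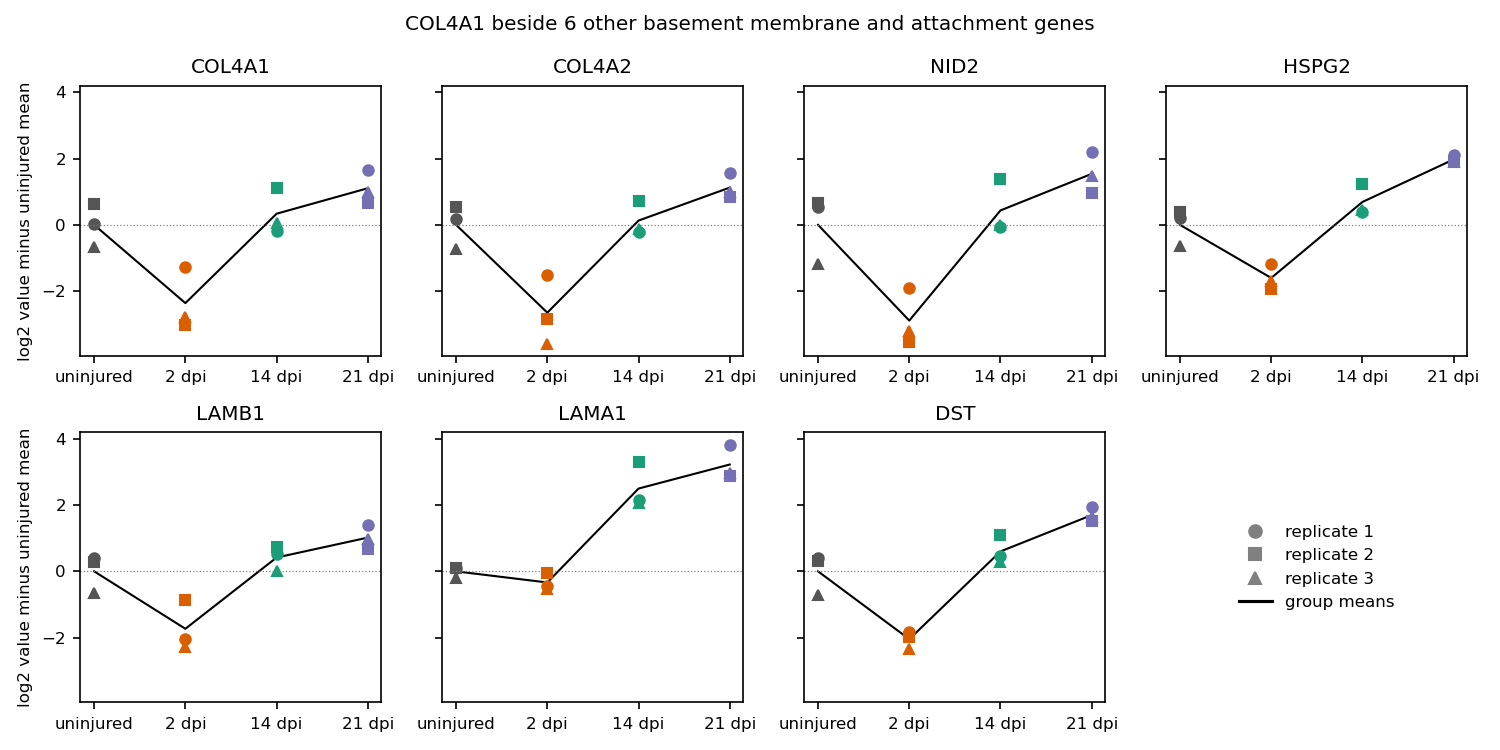
Log2 value minus the uninjured mean on each array, for COL4A1 and 6 other genes, with lines through the means of 3 arrays per group. COL4A1, COL4A2, NID2, HSPG2, LAMB1 and DST dip at 2 dpi, and LAMA1 has its highest values at 14 and 21 dpi.

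Other basement membrane proteins were read from a list of 38 genes, of which 27 had a probe set with that symbol. At 2 dpi 9 of the 27 were lower and 0 higher by limma (10 lower and 1 higher before adjustment, at p under 0.05), at 14 dpi 3 were higher and 0 lower (5 and 1 unadjusted), and at 21 dpi 5 were higher and 0 lower (12 and 0 unadjusted). The median change of the list was -0.07, 0.10 and 0.38 at the 3 times, beside 0.02, 0.01 and -0.01 over all probe sets. Of all probe sets 9.28%, 7.12% and 12.6% were called at those times. The genes lower at 2 dpi included the laminin chains LAMA2 (-2.29), LAMA4 (-1.85) and LAMB1 (-1.73) and the perlecan gene HSPG2 (-1.60). Of these, HSPG2 was higher than in uninjured skin at 21 dpi, by 1.98. LAMA1, the laminin chain best known from embryonic basement membranes, was not called at 2 dpi (-0.34) and was higher at 14 dpi (2.50) and 21 dpi (3.23), from an uninjured mean of 4.01 that lies at the array's lower quartile. PXDN encodes peroxidasin, the enzyme that crosslinks type IV collagen through sulfilimine bonds, and was higher at 14 dpi (1.96) and 21 dpi (3.66). LAMC1, the laminin chain common to most basement membranes, was not called at any time (-0.05, 0.07 and 0.46). LAMA1, LAMA4, LAMB1 and PXDN have dimmer probe sets too, which gave smaller changes. At 2 dpi no dimmer probe set of LAMB1 (0.07, -0.42 and -0.02) or LAMA4 (-0.06) was called. At 21 dpi the dimmer LAMA1 probe set (0.47) and PXDN axo13081-f_at (1.07) were higher, and neither was called at 14 dpi. PXDN axo13083-f_at was not called against uninjured skin.

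COL7A1, the anchoring fibril collagen, was higher in all 3 wound groups on its brightest probe set, by 2.19-fold at 2 dpi, 3.76-fold at 14 dpi and 3.60-fold at 21 dpi. That probe set (axo10787-f_at) read 8.17, 7.74 and 7.56 in uninjured skin, 9.05, 9.54 and 8.27 at 2 dpi, 9.75, 9.40 and 10.05 at 14 dpi, and 9.26, 9.97 and 9.79 at 21 dpi. All 9 wound arrays lay above the 3 uninjured ones, and the 14 and 21 dpi arrays overlapped. The means were 7.82 ± 0.31 (SD, n = 3), 8.95 ± 0.64 (SD, n = 3), 9.73 ± 0.32 (SD, n = 3) and 9.67 ± 0.37 (SD, n = 3) in the order of time. The Log2-fold change was 1.13 at 2 dpi (standard error 0.31, interval 0.43 to 1.83, adjusted p = 0.0494), 1.91 at 14 dpi (interval 1.21 to 2.61, adjusted p = 0.00653) and 1.85 at 21 dpi (interval 1.15 to 2.55, adjusted p = 0.00541). The call at 2 dpi sat at the threshold. It held in 2 of 12 fits that each left out an array (those that dropped 2 dpi replicate 3 or 14 dpi replicate 2) and was lost in the other 10, with adjusted p up to 0.161. The calls at 14 and 21 dpi held in all 25 alternative fits at a threshold of 0.05. Between wound times the differences were not called (0.78 and 0.72 against 2 dpi, adjusted p = 0.174 and 0.137, and -0.06 between 21 and 14 dpi, adjusted p = 0.974).

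The other probe sets of COL7A1 also had higher means in the wounds than in uninjured skin, by less. The middle one (axo10788-r_at) read 6.60, 6.45 and 6.83 in uninjured skin, 7.68, 7.74 and 6.81 at 2 dpi, 7.68, 7.56 and 8.11 at 14 dpi, and 7.44, 8.22 and 7.76 at 21 dpi. At 2 dpi 1 of its arrays fell within the uninjured range, and the change of 0.78 was not called (adjusted p = 0.108), whereas 14 dpi (1.16, adjusted p = 0.0304) and 21 dpi (1.18, adjusted p = 0.0191) were called without overlap. Those calls rested on several arrays. The one at 14 dpi was lost without uninjured replicate 1 (adjusted p = 0.0901) or 2 (0.107), 14 dpi replicate 1 (0.0562), 2 (0.0505) or 3 (0.103), or 21 dpi replicate 3 (0.0535), and the one at 21 dpi without uninjured replicate 1 (0.0552) or 2 (0.0705) or 21 dpi replicate 2 (0.0661) or 3 (0.0607). The dimmest probe set (axo10791-f_at) had means of 4.26 ± 0.31, 4.55 ± 0.23, 4.71 ± 0.19 and 4.77 ± 0.30 (SD, n = 3 each), close to the lower quartile of the arrays (4.04 to 4.11), overlapped between all groups and was called in no comparison, with adjusted p between 0.130 and 0.957. Over the 12 arrays the 2 brighter probe sets tracked each other (r = 0.94) and the dimmest followed them less closely (r = 0.71 and 0.65). As the mean of its 3 probe sets COL7A1 changed by 0.73 at 2 dpi (adjusted p = 0.0625).

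The profiles closest to that of COL7A1 were DCX (r = 0.958), PAMR1 (0.932), IL16 (0.928), COPG2 (0.928) and TMEM132A (0.924). PAMR1, which encodes a secreted protein first described in regenerating muscle, had means of 4.76 in uninjured skin and 7.11, 8.25 and 8.37 at the 3 times. COPG2 encodes a subunit of the COPI coat of Golgi transport vesicles and had means of 8.88, 9.12, 9.22 and 9.20. Procollagen VII is processed by the proteinases of the BMP1 and tolloid family, and of these TLL1 was higher at all 3 times (0.97, 2.53 and 2.07). BMP1 itself fell by 1.10 at 2 dpi and was higher at 21 dpi (1.09) on its brightest probe set, and on another it was not called at 2 dpi (-0.24) and was higher at 14 dpi (0.83) and 21 dpi (1.45). MIA3, whose product TANGO1 loads bulky procollagens such as type VII into transport carriers, was not called on its brightest probe set (0.06, 0.20 and -0.18).

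**Figure D3:**
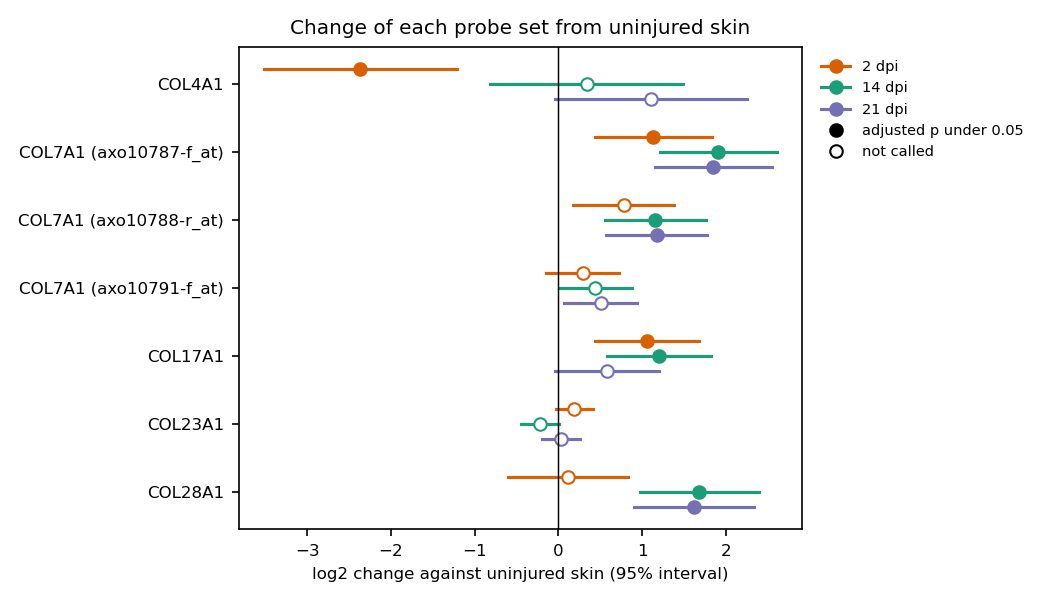
Log2 change from uninjured skin of the 7 probe sets at 2, 14 and 21 dpi, with 95% intervals from limma (n = 3 arrays per group), where filled points passed an adjusted p of 0.05 and open points did not. Filled points number 3, 4 and 3 at 2, 14 and 21 dpi, and COL4A1 at 2 dpi is the only one of them below 0.

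COL17A1, the hemidesmosome collagen, was higher at 2 and 14 dpi, by 2.08-fold and 2.30-fold, and at 21 dpi was not called. It read 11.20, 10.98 and 10.77 in uninjured skin, 11.85, 12.54 and 11.73 at 2 dpi, 12.48, 11.71 and 12.38 at 14 dpi, and 11.14, 11.95 and 11.62 at 21 dpi. All arrays of 2 and 14 dpi lay above uninjured skin, and 1 array of 21 dpi lay within its range. The means were 10.99 ± 0.22 (SD, n = 3), 12.04 ± 0.44 (SD, n = 3), 12.19 ± 0.42 (SD, n = 3) and 11.57 ± 0.41 (SD, n = 3). The Log2-fold change was 1.05 at 2 dpi (standard error 0.28, interval 0.43 to 1.68, adjusted p = 0.0412), 1.20 at 14 dpi (interval 0.58 to 1.82, adjusted p = 0.0291) and 0.58 at 21 dpi (interval -0.04 to 1.21, adjusted p = 0.217). The difference between 21 and 14 dpi, of -0.62, was not called (interval -1.24 to 0.00, adjusted p = 0.491). The order from lowest to highest was uninjured, 21 dpi, 2 dpi and 14 dpi, and no neighbours in it differed beyond their spread. The call at 2 dpi was lost in 8 of 12 fits that each left out an array (adjusted p up to 0.138; it held without 14 dpi replicate 1 or 2 or 21 dpi replicate 1 or 2), and the call at 14 dpi in 6 of 12 (without uninjured replicates 1, 2 or 3, 14 dpi replicates 1 or 3, or 21 dpi replicate 3, adjusted p up to 0.0954).

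Epidermal markers followed COL17A1 on some arrays and not on others. The centred mean of 19 suprabasal and wound epidermis markers (of 34 listed, DSP among them) was 0.34 to 0.52 at 2 dpi, 0.04 to 0.16 in uninjured skin, -0.55 to 0.13 at 14 dpi and -0.67 to -0.16 at 21 dpi. The centred mean of 9 basal keratinocyte markers (of 15 listed), the cell type that carries hemidesmosomes, was -0.06 to 0.30 at 2 dpi and overlapped uninjured skin (-0.01 to 0.25), with 2 genes higher and 1 lower, and it was -0.36 to 0.04 at 14 dpi and -0.13 to 0.00 at 21 dpi. The lowest COL17A1 values of the 14 and 21 dpi groups, on 14 dpi replicate 2 and 21 dpi replicate 1, were on the arrays with the lowest epidermal means of their groups. These arrays also had the highest muscle means of their groups (1.04 and 1.67) and the lowest values of the brightest COL7A1 probe set. At 2 dpi the lowest COL17A1 value (replicate 3) came with the lowest suprabasal mean (0.34), though the lowest basal mean (-0.06) was on replicate 1. In uninjured skin the lowest COL17A1 value (replicate 3) came with the highest suprabasal mean (0.16) and the lowest basal mean (-0.01). With the mean of both basal and suprabasal markers as a covariate, COL17A1 changed by 0.63 at 2 dpi (adjusted p = 0.0601), 1.56 at 14 dpi (adjusted p = 0.00101) and 1.24 at 21 dpi (adjusted p = 0.0139). In the same fit the brightest COL7A1 probe set changed by 0.76 at 2 dpi (adjusted p = 0.143), 2.23 at 14 dpi (adjusted p = 0.00165) and 2.42 at 21 dpi (adjusted p = 0.00583). With the muscle mean instead, COL17A1 changed by 0.72 at 2 dpi (adjusted p = 0.536) and 1.04 at 14 dpi (adjusted p = 0.0822), and COL7A1 by 1.10 at 2 dpi (adjusted p = 0.387). Of the 19 epidermal markers, 2 were higher and 0 lower at 2 dpi by limma (7 and 1 before adjustment, at p under 0.05), 1 higher and 1 lower at 14 dpi, and 0 higher and 2 lower at 21 dpi (2 and 6 unadjusted). Of all probe sets 9.28%, 7.12% and 12.6% were called at 2, 14 and 21 dpi, so the epidermal marker counts were near that share. The epidermal means varied with the groups, so the covariate fits cannot set epidermal content apart from the wound and its age. The part of epidermal content in the COL17A1 values was not tested.

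The profiles closest to COL17A1 were NPL (r = 0.913), CTNNB1 (0.901), DSP (0.900), SNX9 (0.888) and ACER3 (0.887). DSP encodes desmoplakin, which links keratin filaments to desmosomes, and its means were 11.98, 12.48, 12.62 and 12.40 in the order of time. CTNNB1 encodes beta-catenin, a partner of the cadherins at cell junctions and a Wnt effector, and its means were 11.86, 12.39, 12.30 and 12.19. Of a list of 17 hemidesmosome and anchoring genes besides the members, 10 were measured, and at 2 dpi 2 were higher and 2 lower, at 14 dpi 0 were called in either direction by limma (0 higher and 2 lower before adjustment, at p under 0.05), and at 21 dpi 1 was higher. The share called over all probe sets was 9.28%, 7.12% and 12.6% at these times. Higher at 2 dpi were LAMB3 (0.65), a chain of the epidermal laminin that anchors hemidesmosomes, and FERMT1 (0.75), the kindlin of keratinocytes. Neither was called against uninjured skin later (LAMB3 0.06 and -0.17, FERMT1 -0.61 and -0.50). ITGB4, the integrin chain that binds COL17A1 inside the hemidesmosome, gave different answers on its probe sets: the brighter one was not called (-0.11, -0.17 and -0.08), and the dimmer one was higher at 2 dpi (1.09) and lower at 14 dpi (-1.10) and 21 dpi (-0.92). Its partner ITGA6 was not called against uninjured skin (0.38, -0.92 and -1.04). DST isoforms serve as hemidesmosome plaque protein in keratinocytes and as cytoskeletal linker in nerve and muscle. On the brightest of 5 probe sets DST was lower at 2 dpi (-2.05) and higher at 21 dpi (1.70). The other 4 gave smaller changes, not all in the same direction. At 21 dpi axo06626-r_at was higher (0.88, adjusted p = 0.00219 by limma), and axo06635-f_at changed by -0.14. At 2 dpi axo06635-f_at (-0.37) and axo06626-r_at (-0.26) were not called.

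Among the sheddases known to cleave COL17A1 in mammals, ADAM10 was higher at 2 dpi (0.54) and 14 dpi (0.53), while ADAM9 (0.61 at 2 dpi) and ADAM17 (0.37 at 2 dpi) were not called against uninjured skin. From the list of proteases and inhibitors, 22 of 36 genes were measured, of which 5 were higher and 1 lower at 2 dpi, 5 higher and 0 lower at 14 dpi and 7 higher and 0 lower at 21 dpi (7 and 0 at 14 dpi, and 8 and 2 at 21 dpi, before adjustment, at p under 0.05). The median changes of the list were 0.07, 0.21 and 0.25, and 9.28%, 7.12% and 12.6% of all probe sets were called at the same times. MMP28, an epidermal metalloproteinase, was higher at 2 dpi (2.22) and was not called at 14 dpi (0.23) or 21 dpi (0.10). Outside 2 dpi its values (3.27 to 3.82) lay under the arrays' lower quartiles (4.04 to 4.11), near background. The metalloproteinase inhibitor TIMP1 gave the same calls (3.36, -0.36 and -0.40). MMP14, a membrane-bound collagenase, was not called at 2 dpi (0.06) and was higher at 14 dpi (0.98) and 21 dpi (1.68). MMP2, a gelatinase that degrades type IV collagen, has a probe set that was higher at 2 dpi (3.08) and another that was lower (-3.41), so it has no settled direction here.

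COL28A1 was not called at 2 dpi and was higher by 3.21-fold at 14 dpi and 3.07-fold at 21 dpi. It read 5.77, 5.19 and 6.04 in uninjured skin, 6.27, 6.10 and 4.96 at 2 dpi, 7.14, 7.27 and 7.65 at 14 dpi, and 7.40, 7.32 and 7.14 at 21 dpi. The 6 late arrays all lay above the 6 early ones, and within each of the 2 sets the groups overlapped. The means were 5.67 ± 0.43 (SD, n = 3), 5.78 ± 0.71 (SD, n = 3), 7.35 ± 0.26 (SD, n = 3) and 7.29 ± 0.13 (SD, n = 3). The Log2-fold change was 0.11 at 2 dpi (standard error 0.32, interval -0.60 to 0.83, adjusted p = 0.887), 1.68 at 14 dpi (interval 0.97 to 2.40, adjusted p = 0.0126) and 1.62 at 21 dpi (interval 0.91 to 2.33, adjusted p = 0.0102). Against 2 dpi it was higher by 1.57 at 14 dpi (adjusted p = 0.0160) and 1.51 at 21 dpi (adjusted p = 0.00828). The 2 late groups differed by -0.06 (adjusted p = 0.974). At 14 dpi the call was lost without 14 dpi replicate 3, narrowly (adjusted p = 0.0507), and at 21 dpi it held in all 25 alternative fits at a threshold of 0.05 (its adjusted p of 0.0102 is above 0.01). Against 2 dpi, the calls at 14 and 21 dpi were lost with the muscle mean (adjusted p = 0.0601 and 0.149) or the epidermal mean (0.0986 and 0.140) as a covariate. The one at 14 dpi was also lost without 14 dpi replicate 3 (adjusted p = 0.0571) and with only the groups compared in the fit (0.0796).

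Genes of Schwann cells and nerve, for which COL28A1 is known in mouse, were read beside it, and their part in its values was not tested. Of 19 measured genes (of 30 listed), 0 were called in either direction at 14 dpi by limma (0 higher and 5 lower before adjustment, at p under 0.05), and at 21 dpi GAP43 was higher (0.43) and MAL lower (-1.99), where 7.12% and 12.6% of all probe sets were called. At 2 dpi, when COL28A1 was not called, 0 of the 19 were higher and 1 lower by limma (2 and 6 before adjustment). The median change of the list was then -0.005, and 9.28% of all probe sets were called. The myelin gene MBP fell by 2.28 at that time. MAL read 11.38, 11.41 and 11.71 at 2 dpi, beside 10.27, 11.02 and 10.96 in uninjured skin. The centred list mean lay between 0.05 and 0.21 in uninjured skin, -0.18 and -0.04 at 2 dpi, -0.18 and 0.04 at 14 dpi, and -0.12 and 0.24 at 21 dpi. All arrays of 2 and 14 dpi were thus below uninjured skin, the nearest at 14 dpi by a small margin, and 21 dpi overlapped it. ERBB3, GFAP, NEFL, ELAVL4 and NEFM had uninjured means of 2.99 to 4.03, under the arrays' lower quartiles, and SOX10 and S100B were not analysed here. Closest to COL28A1 in profile were ITGB5 (r = 0.965), RNF125 (0.963), GLOD4 (0.943), KALRN (0.943) and KAZALD1 (0.941). ITGB5, an integrin chain that binds vitronectin, had means of 7.51, 7.63, 8.68 and 8.68.

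COL23A1, the other transmembrane collagen, lay near background. It read 4.09, 3.84 and 3.91 in uninjured skin, 4.11, 4.27 and 4.03 at 2 dpi, 3.60, 3.77 and 3.80 at 14 dpi, and 3.97, 4.06 and 3.90 at 21 dpi. On 9 of the 12 arrays it was below that array's lower quartile. Its means were 3.94 ± 0.13, 4.14 ± 0.12, 3.72 ± 0.11 and 3.97 ± 0.08 (SD, n = 3 each), and no wound group was called against uninjured skin (0.19, -0.22 and 0.03, adjusted p = 0.288, 0.243 and 0.895). The 14 dpi arrays were below the 2 dpi arrays by 0.41 on the log2 scale (1.33-fold, adjusted p = 0.0360) without overlap, a call that held in 10 of 23 alternatives and was lost in 8 of 12 fits that each left out an array. Among those 8 was the fit without 14 dpi replicate 2 (-0.43, adjusted p = 0.0849). Its closest profiles were IRF1 (r = 0.890), ST14 (0.841), TACC2 (0.839), NFKB2 (0.837) and LRRIQ4 (0.820).

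**Figure D4:**
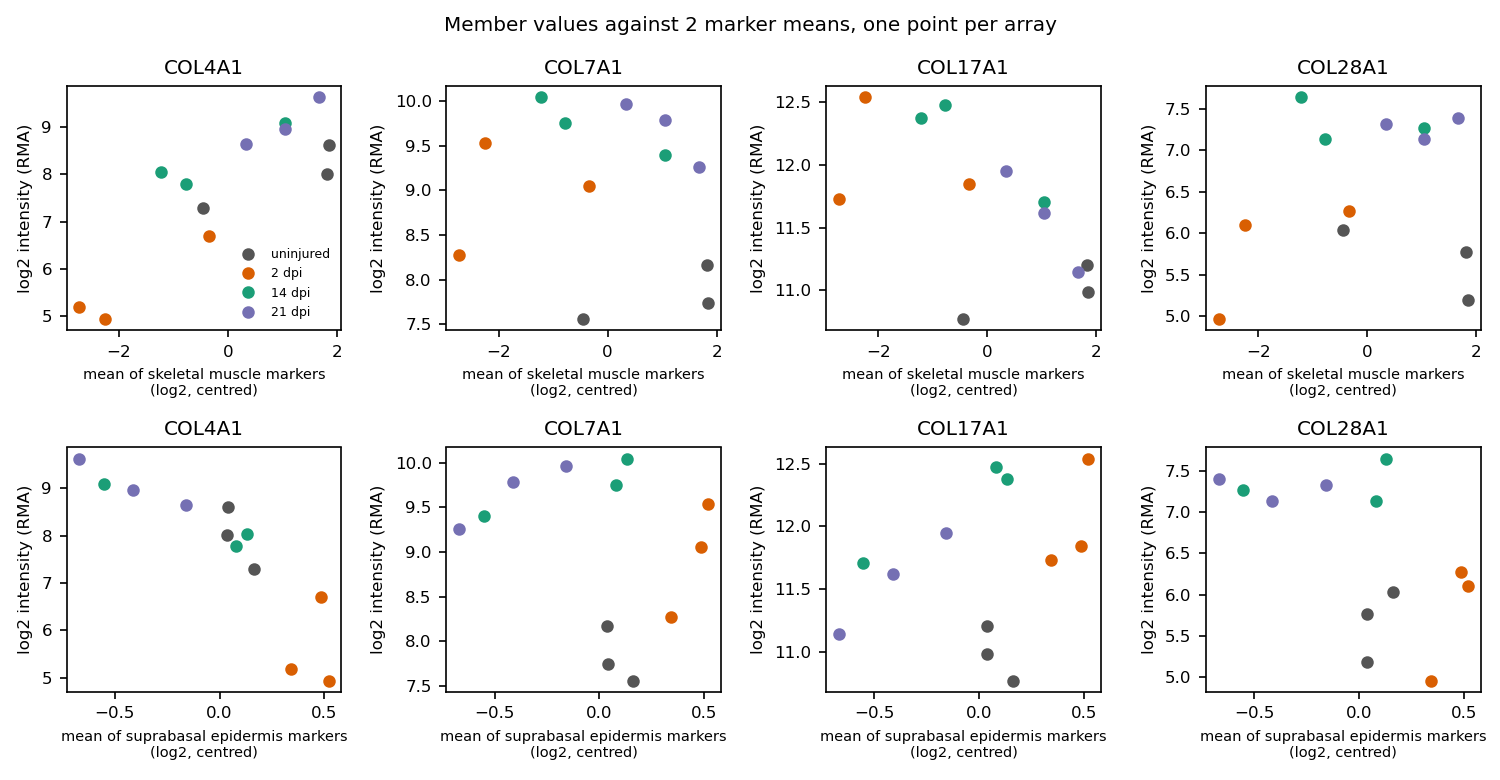
Log2 intensity of COL4A1, the brightest COL7A1 probe set, COL17A1 and COL28A1 (vertical axes) against the centred mean of skeletal muscle markers (upper row) or suprabasal epidermis markers (lower row) on the same array, 1 point per array, coloured by group. In each group the array with the highest COL4A1 value has the highest muscle mean, and the 2 dpi arrays have the highest epidermal means (0.34 to 0.52).

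Counted over the 7 probe sets, 2 were higher and 1 lower at 2 dpi, where 9.28% of all probe sets were called. At 14 dpi 4 were higher and 0 lower (background 7.12%; 5 of the 7 before adjustment, at p under 0.05), and at 21 dpi 3 were higher and 0 lower (background 12.6%; 4 unadjusted). From 2 to 14 dpi 2 were higher and 1 lower (background 7.54%), and from 2 to 21 dpi 2 were higher and 0 lower (background 21.8%; 3 unadjusted). From 14 to 21 dpi 0 of 7 were called by limma (background 0.170%), and 1, COL23A1, had an unadjusted p under 0.05. That background rose to 2.35% without 14 dpi replicate 2 and to 13.1% with array weights. The median change of the 7 was 0.29, 1.16 and 1.11 against uninjured skin at 2, 14 and 21 dpi, with medians over all probe sets of 0.02, 0.01 and -0.01. The 3 probe sets of COL7A1 count as 1 gene, the comparisons with uninjured skin share its 3 arrays. With 3 arrays on each side, 0.1 is the smallest p that exact permutation could reach.

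Across arrays the members paired off unevenly. The brightest COL7A1 probe set followed COL28A1 (r = 0.82) and COL17A1 (0.77) and hardly followed COL4A1 (0.20), and COL4A1 ran with COL28A1 (0.59) and against COL17A1 (-0.38) and COL23A1 (-0.53). These r are descriptions over 12 arrays in 4 groups. Enzymes that fold, export and crosslink collagen were read from a list of 34 genes, 19 of them measured. Of these, 3 were higher and 0 lower at 2 dpi (4 and 3 before adjustment, at p under 0.05). At 14 dpi 8 were higher and 0 lower (11 and 0), and at 21 dpi 10 were higher and 0 lower (12 and 1). The medians were 0.13, 0.79 and 0.79, and the share called over all probe sets was 9.28%, 7.12% and 12.6%. PLOD2, a lysyl hydroxylase of collagen telopeptides, and PLOD1, a lysyl hydroxylase of the helix, were higher at all 3 times (1.34, 1.80 and 2.10, and 0.85, 0.93 and 0.85), as the brightest COL7A1 probe set was. SERPINH1, the collagen chaperone HSP47, was not called at 2 dpi (-0.70) or 14 dpi (0.95) and was higher at 21 dpi (2.11). SEC23A, a coat subunit of the vesicles that carry procollagen out of the endoplasmic reticulum, was higher at 14 dpi (0.79) and 21 dpi (1.13).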

How the data were processed

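RNA of 12 skin samples was hybridised to 12 one-colour arrays. The authors deposited log2 intensities, background corrected, normalised and summarised per probe set by RMA (Affymetrix Expression Console per the labels' processing notes, the affy package in the methods), with versions not given in the sources used here. RMA moves dim probe sets towards a common background, which compresses their folds. Control probe sets (45 of 20080) were left out, and limma 3.58.1 under R 4.3.3 was run on the other 20035 (lmFit with 4 group means, eBayes without trend, 8 residual and 2.43 prior degrees of freedom). P-values were two-sided, adjusted by Benjamini and Hochberg within each of 6 comparisons, with a threshold of 0.05. No filter on low signal was applied. Symbols came from the array's annotation (10951 probe sets with 1 symbol, 9084 with none, 8639 genes), and a gene was represented by its probe set with the highest mean.

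The members and lists were chosen with earlier results of these data known. Named genes are the members, the 5 closest profiles by Pearson's r, and of each list up to 4 genes with the smallest F-test p plus known partners of a member. Further list genes (LAMA2, LAMA4, LAMB1, PLOD1, PLOD2, SEC23A, MBP and the called endothelial genes among them) were chosen after their values were seen. Group sizes, arrays and replicate numbers came from the titles. The fit was tested on simulated data. Alternatives were a filter on dim probe sets (25th percentile or median), median or quantile normalisation, array weights, a trend, the replicate number as a block, a fit of the compared groups alone, controls kept in, marker means as covariates, each array left out, the mean of a gene's probe sets, joint adjustment and an adjusted p under 0.01. Leaving out uninjured replicate 3 and 14 dpi replicate 2 together was chosen after seeing the data. Array medians (5.52 to 5.61) and correlations between arrays (0.924 to 0.994) were close, and precision is limited by how many arrays there were.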

Additional observations from a re-analysis of the deposited data

Results flagged for a closer look

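Changes from uninjured skin that differed between wound times, by the limma test of the difference itself, were found for 3 members. COL4A1 was higher by 2.70 on the log2 scale at 14 dpi than at 2 dpi and by 3.47 at 21 dpi than at 2 dpi, with no overlap between arrays. COL28A1 was higher by 1.57 at 14 dpi and by 1.51 at 21 dpi than at 2 dpi, also without overlap. COL23A1 was lower at 14 dpi than at 2 dpi, by -0.413, at values near the lower quartile of the arrays. No array was tested as an outlier of its group, since a group held 3 arrays.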

How the results depend on the processing

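The limits are these. Each group has 3 arrays, and dim probe sets (COL23A1 and the dimmest of COL7A1) are close to background. Some cell type marker means differ between the groups, and the cell content of the biopsies is not known. In general the member calls at 14 and 21 dpi for the brightest COL7A1 probe set and for COL28A1 at 21 dpi were kept in all 25 alternative fits at a threshold of 0.05 (COL28A1 was not called at 0.01), and those at 2 dpi for COL7A1 and COL17A1 in 9 and 12 of 25. Of the single values, 916 kept their direction and side of the threshold, 80 lost a call, 11 gained one and 31 reversed, none of the last called at first. The causes were not tested.

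The number of members called changed as follows. At 2 dpi against uninjured skin (3 called) it was 1 with the epidermal covariate or without the pair of uninjured replicate 3 and 14 dpi replicate 2, and 0 with the muscle covariate, with only the groups compared, or at an adjusted p under 0.01. Of all probe sets these fits called 7.89% (epidermal covariate), 16.5% (pair left out), 1.44% (muscle covariate) and 4.8% (only the groups compared). At 14 dpi (4) it was 1 at an adjusted p under 0.01. At 21 dpi (3) it was 5 with array weights, which called 33.5% of all probe sets, and 1 at an adjusted p under 0.01. From 2 to 14 dpi (3) it was 1 with the muscle covariate and 0 with the epidermal covariate, only the groups compared or an adjusted p under 0.01. The 3 fits called 3.66%, 1.6% and 2.94% of all probe sets in that order. From 2 to 21 dpi (2) it was 4 with array weights, 1 with the muscle and 0 with the epidermal covariate. These called 37.9%, 3.77% and 2.21% of all probe sets. From 14 to 21 dpi (0) it was 1 with array weights, which called 13.1% of all probe sets. For the F-test (5) it was 3 with the muscle covariate or at an adjusted p under 0.01. With each array left out in turn the counts ranged from 0 to 3 at 2 dpi, 1 to 4 at 14 dpi, 2 to 3 at 21 dpi, 1 to 3 from 2 to 14 dpi, 2 to 2 from 2 to 21 dpi, 0 to 0 from 14 to 21 dpi, and 3 to 5 for the F-test. At 2 dpi the count was 0 when the array left out was uninjured replicate 1, uninjured replicate 2 or 2 dpi replicate 2 (5.48%, 4.6% and 4.94% of all probe sets). It was 1 for uninjured replicate 3 (13.6%) and for the 2 dpi replicate 1 (7.57%), 14 dpi replicate 3 (7.96%) and 21 dpi replicate 3 (7%) arrays. At 14 dpi it was 1 when 14 dpi replicate 3 was left out (3.95% of all probe sets). It was 2 for uninjured replicates 1 and 2 (3.5% and 3.73%), for 14 dpi replicate 1 (6.29%) and for 21 dpi replicate 3 (4.92%). From 2 to 14 dpi 1 was called without 14 dpi replicate 3 (5.25% of all probe sets). For the F-test it was 3 when uninjured replicate 1, uninjured replicate 2 or the 21 dpi replicate 3 array was left out.

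Whether the replicate numbers mark the same animals over time is not known, and no clear pairing by number was seen. Deviations from the group means correlated over 0.1 in 5 of 18 same-numbered pairs (r from -0.65 to 0.48). By these deviations 4 of 12 arrays were closest to their own number. Such correlations cannot exclude that groups share animals. With the replicate number as a block the members called were 1 at 2 dpi (7.24% of all probe sets), 2 at 14 dpi (5.11%) and 3 for the F-test.

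Reversed values were uncalled in the original fit. The largest in size was that of COL17A1 from 2 to 21 dpi, 0.61 with the epidermal covariate and -0.47 in the original fit. Against uninjured skin at 2 dpi, COL28A1 was -0.011 with the epidermal covariate and -0.13 to 0.52 with an array left out, and the dimmest COL7A1 probe set -0.093 with the muscle covariate. At 14 dpi COL4A1 was -0.19 with array weights, -0.18 with the epidermal covariate, -0.39 without the same pair of arrays, and -0.054 to 0.66 with an array left out. At 21 dpi COL23A1 was -0.022 to 0.10 with an array left out. From 2 to 14 dpi COL17A1 was -0.0070 to 0.40 with an array left out, and from 2 to 21 dpi 0.61 with the epidermal covariate. From 14 to 21 dpi COL4A1 was -0.0030 with the muscle covariate, and COL7A1, from brightest to dimmest, was 0.19 with the epidermal covariate, -0.15 with array weights and -0.089 with the pair of arrays left out, and -0.027 with that pair left out. As the mean of its probe sets COL7A1 was 0.0073. COL28A1 was 0.020 with the epidermal covariate. With an array left out, the 3 COL7A1 probe sets ranged from -0.23 to 0.14, -0.19 to 0.21 and -0.044 to 0.23, and COL28A1 from -0.17 to 0.084.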

Other observations

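Collagens outside the 5 genes gave 24 measured genes, of which 1 was higher and 6 lower at 2 dpi, 6 higher and 0 lower at 14 dpi (7 and 0 before adjustment in limma, at p under 0.05) and 10 higher and 0 lower at 21 dpi (13 and 0). Their median change was -0.12, 0.25 and 0.98, and the share called over all probe sets was 9.28%, 7.12% and 12.6%. The chains of type VI collagen, a beaded-filament collagen that lies next to basement membranes, were among those lower at 2 dpi, with COL6A1 at -3.86, COL6A2 at -4.35 and COL6A3 at -5.37. COL12A1, a fibril-associated collagen, was lower at 2 dpi (-3.12) and higher at 21 dpi (1.41). COL8A1, a short-chain collagen of specialised basement membranes, was not called at 2 dpi (-0.31) and was higher at 14 dpi (1.64) and 21 dpi (2.55). FREM1, FREM2, FREM3 and FRAS1, members of a basement membrane complex beneath embryonic epidermis, were not called against uninjured skin (0.53, 0.04, 0.06 and -0.06 at 21 dpi). GAP43 apart, neuronal genes of the nerve list such as NEFL, NEFM, NEFH and ELAVL4 were not called against uninjured skin either.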
